A study of Macaca mulatta with 2 samples.

Results

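Choroidal macrophages are long-lived phagocytes of the vascular layer behind the retina. They clear debris, present antigen on MHC class II and differ in origin and place from microglia, the macrophages of the neural retina. Described here are 9 genes known from these and other myeloid cells, taken by gene name from the 26533 genes and transgenes of the reference: CD74, CD163, MRC1, LYVE1, CHIT1, CD68, TYROBP, FCER1G and CSF1R. All 9 names were found once in the feature list, and each gene had at least 1 unique molecular identifier (UMI, 1 tagged transcript molecule) over the tissue of each section.

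The values come from 2 sections of the posterior eyecup (retina, choroid and sclera) of rhesus macaques, measured by Visium, which captures poly-A RNA on a grid of spots. Each section is the only one of its animal. NHP1, aged 5 years, had received AAV2-CAG-hRPE65 in both eyes. NHP2, aged 6 years, had received AAV8-GRK1-mScarlet in 1 bleb of each eye, and another bleb held AAV8-GRK1-hRPGR. CAG is a ubiquitous promoter and GRK1 a photoreceptor promoter. Both sections were taken from right eyes outside the vector blebs, so they are untreated areas of treated eyes and not tissue of untreated animals. All eyes had received subtenon triamcinolone, a corticosteroid, and topical dexamethasone with neomycin and polymyxin B. Adalimumab was given to left eyes only, which were not analysed here. Levels are given as UMIs of a gene per 10000 UMIs of the region, with an exact 95% Poisson interval for counting error. With 1 section per animal, no test between animals or regions was made.

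NHP1 held 1484784 UMIs in 534 tissue spots and NHP2 held 805726 in 470, with medians of 1473.5 and 370.5 UMIs per spot. Spots were grouped by their other genes, with 14 immune lists, the 9 members included, left out. A group was named by markers of 5 layers. In NHP1 this gave 143 inner retina-like, 120 photoreceptor-like, 72 choroid-like and 124 sclera-like spots, and 75 spots led by GJA1 stayed unnamed. The choroid-like region was led by PAX3, KRT19, COX6A2, TMEM140 and CD93 and also carried 15 RPE and 13 sclera markers beside its 19 choroid markers. It may thus be a mixture of adjoining layers, which was not tested. In NHP2 the groups were 34 inner retina-like, 35 photoreceptor-like, 70 RPE-like and 146 sclera-like spots. The sclera-like spots came from 2 clusters, and the larger, of 87 spots, carried 12 choroid markers beside its 20 sclera markers, so it too may be a mixture. The smaller sclera-like cluster, of 59 spots, was led by HBA. An NHP2 region of 87 spots, called HBA-led below, was also led by HBA, with SCGB3A2 and ACTA2 (haemoglobin alpha, a secretoglobin and smooth muscle actin). It held 16 sclera and 10 choroid markers and stayed unnamed, so no NHP2 region was named choroid. A further 67 and 27 NHP2 spots, with 1431 and 1426 UMIs in all, fell below the 2000 UMIs a cluster needed for a name, and 4 tissue spots were empty. The photoreceptor-like region of NHP2 also carried 13 RPE markers. "Neural retina" below joins the inner retina-like and photoreceptor-like spots. It leaves out the GJA1-led spots of NHP1, which carried 23 photoreceptor and 7 RPE markers.

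The 250 bases before the gene start are printed for 4 members. CD74 and CHIT1 held most of the UMIs in NHP1, and CD163 and MRC1, like CHIT1, had the lowest NHP2 over NHP1 ratios of tissue level. The sequences are from the Mmul_10 genome with RefSeq gene starts, 5′ to 3′ on the strand of the gene. Capitals mark matches on either strand to GAGGAA, the core bound by PU.1, a myeloid transcription factor, and to CCAAT, the core of the NF-Y site found before many MHC class II genes. The strands and positions of the windows are chr6:147922839-147923088 (minus) for CD74, chr1:60729930-60730179 (minus) for CHIT1, chr11:7715950-7716199 (minus) for CD163 and chr9:18958889-18959138 (plus) for MRC1.
CD74: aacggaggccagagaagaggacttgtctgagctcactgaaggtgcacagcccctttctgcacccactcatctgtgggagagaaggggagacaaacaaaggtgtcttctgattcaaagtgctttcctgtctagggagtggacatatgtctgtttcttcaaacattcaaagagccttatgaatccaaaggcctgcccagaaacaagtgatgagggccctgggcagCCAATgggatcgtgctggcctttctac
CHIT1: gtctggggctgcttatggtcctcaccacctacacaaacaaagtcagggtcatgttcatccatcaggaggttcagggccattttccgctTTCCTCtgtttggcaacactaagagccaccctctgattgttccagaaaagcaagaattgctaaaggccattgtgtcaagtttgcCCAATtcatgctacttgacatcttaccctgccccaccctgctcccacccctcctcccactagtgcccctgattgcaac
CD163: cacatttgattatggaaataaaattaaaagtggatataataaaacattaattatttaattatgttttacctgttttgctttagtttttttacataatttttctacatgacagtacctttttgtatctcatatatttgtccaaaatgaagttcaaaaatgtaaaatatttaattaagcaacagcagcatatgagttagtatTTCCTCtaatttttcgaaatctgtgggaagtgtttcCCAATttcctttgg
MRC1: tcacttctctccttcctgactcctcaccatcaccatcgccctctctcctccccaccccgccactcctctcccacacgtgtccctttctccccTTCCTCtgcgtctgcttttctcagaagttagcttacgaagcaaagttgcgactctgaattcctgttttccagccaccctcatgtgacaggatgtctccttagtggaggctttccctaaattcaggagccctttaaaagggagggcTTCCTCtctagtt

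GAGGAA was found in the windows of 6 of the 9 members and in 21.8% of the windows of all 21102 genes. CCAAT was found in 4 of 9 members and in 31% of all windows. A match is a description of the letters and not a binding site.

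CD74 is the invariant chain, which guards the peptide groove of MHC class II molecules and escorts them to the endosome. It was the most abundant member in both sections, with 407 UMIs over tissue in NHP1 and 354 in NHP2. In NHP1 its level was 15.9 (13.8 to 18.1) in the choroid-like region and 2.85 (1.88 to 4.15) in sclera, against 1.68 (1.36 to 2.07) in inner retina and 1.01 (0.778 to 1.29) in the photoreceptor layer. The choroid-like level stood 12.0-fold (9.73 to 14.9) over neural retina and 5.56-fold (3.72 to 8.63) over sclera. With each spot in the class of its highest marker score (the score classes), the ratio over sclera was 3.48 (2.33 to 5.40). By large tissue piece, CD74 in choroid-like spots and sclera was 15.4 and 4.14 in the first and 16.3 and 1.37 in the second. Of the 72 choroid-like spots, 62 held a CD74 UMI. In NHP2 the level was 11.8 (8.72 to 15.6) in the HBA-led region, 10.8 (5.76 to 18.5) in the RPE-like region and 9.44 (7.88 to 11.2) in sclera, and these 3 neighbours overlapped in their intervals. With the score classes they came apart, with 22.5 (18.4 to 27.3) in choroid, 10.5 (8.03 to 13.6) in RPE and 5.69 (4.42 to 7.21) in sclera. The choroid over sclera ratio of CD74 in NHP2 was then 3.96 (2.88 to 5.46). The NHP2 photoreceptor layer had 3.41 (2.62 to 4.37) and the inner retina 2.27 (1.84 to 2.76), but with each spot in the class of its highest marker score this order turned, to 1.58 (1.09 to 2.23) and 2.42 (1.95 to 2.97).

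CHIT1 encodes chitotriosidase, a chitinase secreted by activated and lipid-laden macrophages. It was the second most abundant member in NHP1. Of its 138 UMIs there, 99 lay in the choroid-like region, at a level of 7.20 (5.85 to 8.77). Sclera had 1.16 (0.580 to 2.08), inner retina 0.259 (0.142 to 0.434) and the photoreceptor layer 0.126 (0.0545 to 0.249). The choroid-like level stood 38.4-fold (24.0 to 64.1) over neural retina and 6.20-fold (3.32 to 12.8) over sclera. The 10 spots with most CHIT1 held 49.3% of its UMIs, all 10 lay in the choroid-like region, and the highest single spot had 21 UMIs. NHP2 held only 14 CHIT1 UMIs, of which 12 were in sclera at a level of 0.878 (0.454 to 1.53), 1 in the HBA-led region and 1 in inner retina. This place depended on the assignment. With the score classes 8 lay in NHP2 choroid at 1.75 (0.755 to 3.44) and 5 in sclera at 0.418 (0.136 to 0.976), a ratio of 4.18 (1.21 to 16.2).

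**Figure D1:**
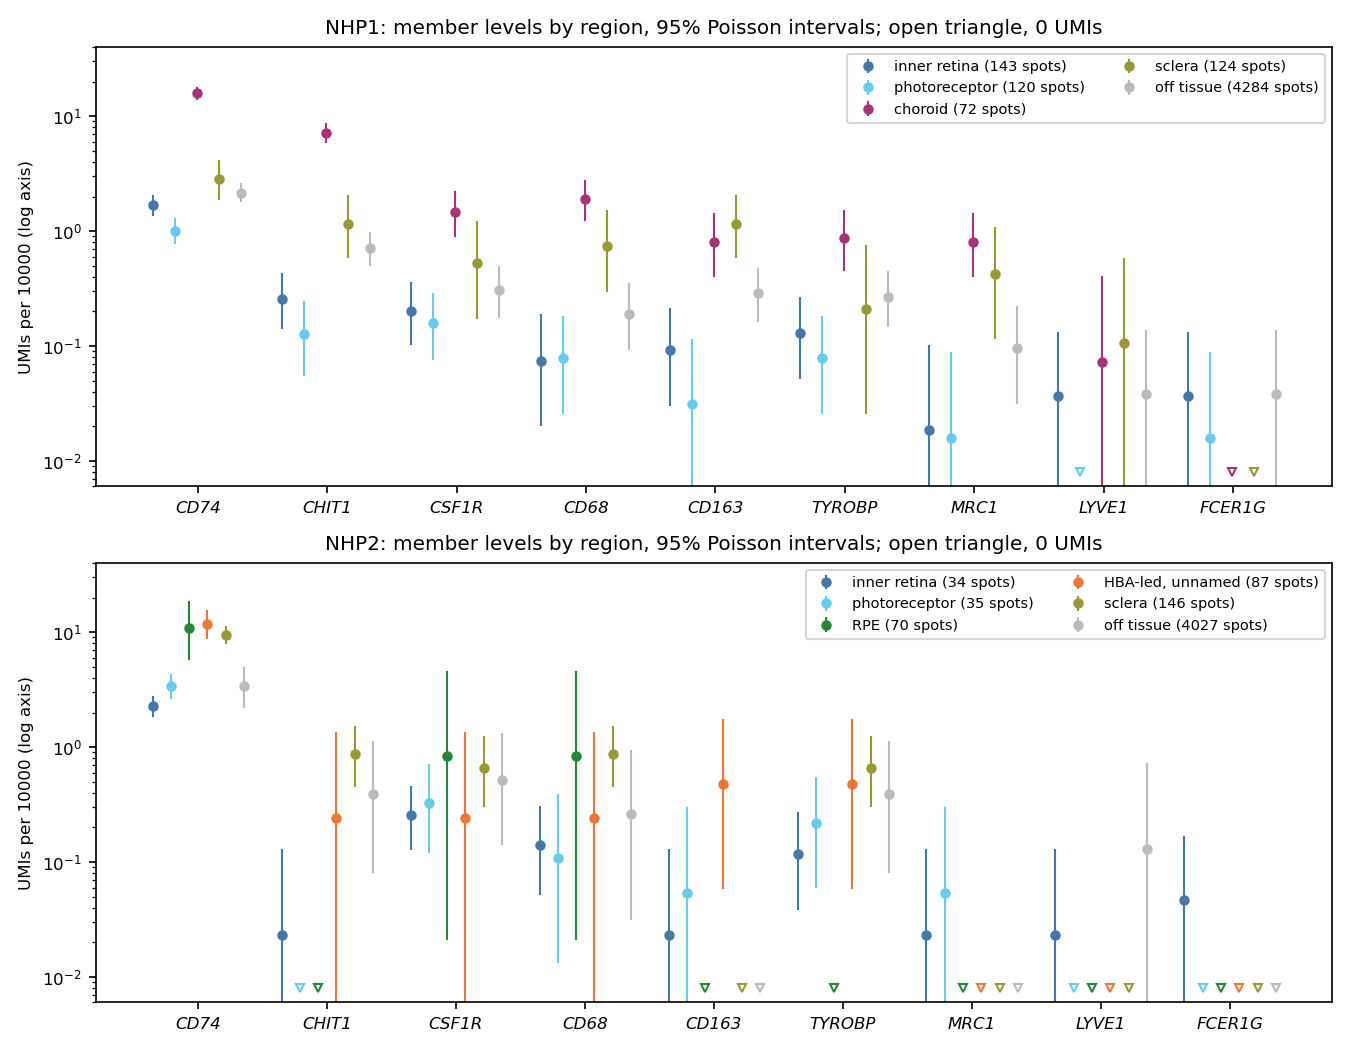
Level of each member (UMIs per 10000, log axis) in each region of NHP1 (top) and NHP2 (bottom), with the off-tissue level in grey. Points are levels of a region's summed UMIs, bars are 95% Poisson intervals and open triangles mark 0 UMIs. In NHP1 the choroid-like point of CD74 (15.9) and of CHIT1 (7.20) lies above every other region.

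CD68, a glycoprotein of late endosomes and lysosomes of phagocytes, had 26 of its 46 NHP1 UMIs in the choroid-like region, at 1.89 (1.24 to 2.77). Its sclera level in NHP1 was 0.740 (0.297 to 1.52) and its neural retina level 0.0767 (0.0351 to 0.146), so the choroid-like level stood 24.7-fold (11.2 to 59.8) over neural retina. In NHP2 CD68 had 0.878 (0.454 to 1.53) in sclera and 0.131 (0.0564 to 0.257) in neural retina, a ratio of 6.72 (2.53 to 19.0). With the score classes this ratio was 4.28 (1.32 to 13.5). Per spot in the main regions of NHP2, CD68 in sclera lay below neural retina. Its level over all tissue did not differ between the sections beyond counting error, with an NHP2 over NHP1 ratio of 0.881 (0.505 to 1.5).

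CSF1R, the receptor for the survival factors CSF1 and IL34, had a choroid-like level of 1.46 (0.889 to 2.25) in NHP1 from 20 UMIs. Neural retina held 21 UMIs at 0.179 (0.111 to 0.273), and the ratio was 8.13 (4.18 to 15.8). Sclera over neural retina was 2.95 (0.870 to 8.05) in NHP1 and 2.37 (0.932 to 5.63) in NHP2, and both intervals held 1. With the score classes it was 4.23 (1.25 to 11.5) in NHP1, which did not hold 1, and 1.88 (0.525 to 5.62) in NHP2. Per spot in the main regions, CSF1R in sclera lay below neural retina in both sections. The ligand IL34 had 11 UMIs in the NHP1 choroid-like region at 0.800 and 21 UMIs in NHP2 sclera at 1.54, against 0.0767 and 0.229 in the neural retina of the same sections. CSF1 had 4 UMIs in the NHP1 choroid-like region.

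TYROBP (DAP12) and FCER1G (the Fc receptor gamma chain) are adaptor proteins that carry signals from activating receptors such as TREM2 and Fc receptors. TYROBP had 12 UMIs in the NHP1 choroid-like region at 0.873 (0.451 to 1.52) and 12 in neural retina at 0.102 (0.0528 to 0.179), a ratio of 8.54 (3.51 to 20.8). In NHP2 it had 9 UMIs in sclera and 9 in neural retina, a ratio of 4.48 (1.58 to 12.7), but per spot sclera lay below neural retina. FCER1G had 3 UMIs over the NHP1 tissue and 2 over the NHP2 tissue, all of them in neural retina. Its count of 0 in the NHP1 choroid-like region allows a level of up to 0.218, so no difference could be read at this depth. Of the 13 listed receptors and kinases that use these adaptors, only LYN had at least 20 UMIs in NHP1, and it had 0.218 in the choroid-like region against 0.187 in neural retina.

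CD163, MRC1 and LYVE1 are scavenger and endocytic receptors of resident macrophages, for haemoglobin with haptoglobin, mannosylated glycoproteins and hyaluronan in that order. CD163 had 11 UMIs in the choroid-like and 11 in the sclera-like spots of NHP1, with levels of 0.800 (0.399 to 1.43) and 1.16 (0.580 to 2.08), so its choroid over sclera ratio was 0.688 (0.271 to 1.75), which held 1. Over neural retina its choroid-like level was 13.4-fold (4.75 to 40.8). MRC1 had 11 UMIs in the choroid-like region at 0.800 (0.399 to 1.43), 4 in sclera and 2 in neural retina, and its ratio to neural retina of 47.0 (10.3 to 436) rests on those 2 UMIs. LYVE1 had 4 UMIs over the NHP1 tissue and 1 over NHP2, too few to place. In NHP2 CD163 had 4 UMIs and MRC1 had 2 over all tissue, and both had 0 in sclera, where a count of 0 allows a level of up to 0.219.

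Summed, the 9 members had 28.96 UMIs per 10000 (26.2 to 31.9) in the NHP1 choroid-like region, 7.19 (5.58 to 9.11) in sclera, 2.53 (2.13 to 3) in inner retina and 1.52 (1.23 to 1.85) in the photoreceptor layer. The choroid-like sum stood 14.6-fold (12.4 to 17.2) over neural retina, 4.03-fold (3.11 to 5.29) over sclera, and was 19.7-fold (15 to 26.1) over neural retina without CD74. With the score classes it stood 2.99-fold (2.27 to 3.98) over sclera. By large tissue piece, the choroid-like and sclera sums were 25.5 and 11.0 in the first and 32.8 and 2.73 in the second. Of the 6 members with at least 20 UMIs in NHP1 (all but MRC1, LYVE1 and FCER1G), 6 were at least 2-fold higher in the choroid-like region than in neural retina, as were 13.4% of all 7792 genes with 20 UMIs. CD163 and TYROBP reached 20 UMIs only with their choroid-like UMIs counted. At a minimum of 50 UMIs only CD74 and CHIT1 were tested, and both were higher, against 10.0% of all genes. At 20 UMIs, choroid over sclera gave 5 of 6 members and 17.6% of all genes, with CD163 as the member that was not higher. With each spot in the class of its highest marker score, CD68 at 1.90 (0.788 to 5.23) and CSF1R at 1.96 (0.695 to 6.80) also missed 2-fold over sclera, which left 3 of 6. The 17.6% of all genes is for the main regions and is no baseline for these classes. In those classes the 7 members other than CD74 and CHIT1 had a summed choroid over sclera ratio of 1.48 (0.947 to 2.39), which held 1. Under the main regions of NHP1, sclera over neural retina was at least 2-fold higher for 6 of 6 members and 10.6% of all genes. The interval of CSF1R held 1 there, and CD163 reached 20 UMIs only with its sclera UMIs counted. With the score classes TYROBP had 2 sclera UMIs, and its ratio of 3.23 (0.348 to 14.8) held 1. In the second large tissue piece CD74 had 1.37 (0.502 to 2.98) in sclera and 1.31 (1.08 to 1.58) in neural retina. The median ratio of choroid over neural retina was 12.7 over the 6 members and 0.854 over all genes. In spots, fewer cells of a type and less RNA per cell cannot be told apart.

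**Figure D2:**
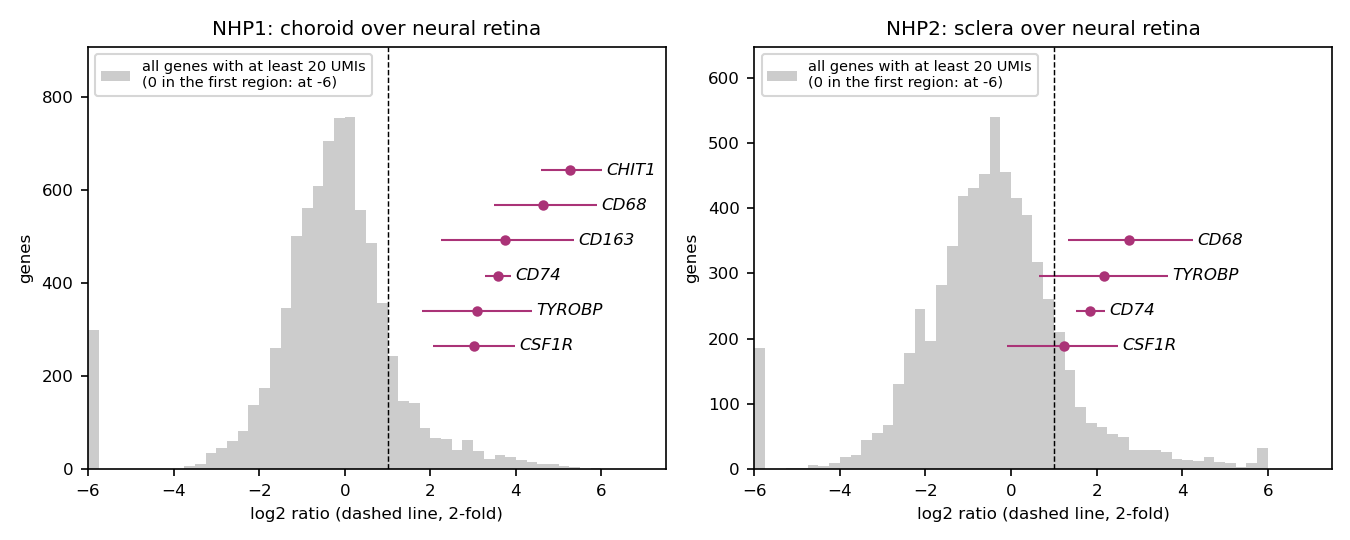
Histogram of log2 ratios of all genes with at least 20 UMIs in the section (grey; genes at 0 in the first region or beyond the axis are drawn in the end bars) with the members' ratios and 95% intervals (purple), for choroid over neural retina in NHP1 and sclera over neural retina in NHP2. The vertical place of a member has no meaning. All 6 NHP1 members and all 4 NHP2 members lie to the right of the dashed 2-fold line, though the intervals of CSF1R and TYROBP in NHP2 cross it.

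In NHP2 the member sum was 13.5 (10.2 to 17.5) in the HBA-led region, 12.5 (10.7 to 14.5) in sclera and 12.5 (6.99 to 20.6) in the RPE-like region, whose intervals overlap. With the score classes the NHP2 sclera sum was 7.70 (6.20 to 9.44). The photoreceptor layer had 4.17 (3.29 to 5.21) and the inner retina 2.92 (2.43 to 3.48). Sclera over neural retina was 3.79 (3.08 to 4.67) in NHP2 and 3.62 (2.72 to 4.76) in NHP1, but 2.81 and 5.11 when each spot took the class of its highest marker score, and 2.81 and 5.95 in the largest tissue piece. In the second piece of NHP1 the sums were 2.73 (1.41 to 4.78) in sclera and 1.97 (1.68 to 2.29) in neural retina, whose intervals overlap. The HBA-led region stood 4.09-fold (2.98 to 5.52) over neural retina and 1.08-fold (0.782 to 1.47) over sclera. With the score classes the NHP2 choroid spots stood 3.49-fold (2.64 to 4.63) over sclera. Of the 4 members with at least 20 UMIs in NHP2 (CD74, CD68, TYROBP and CSF1R), 4 were at least 2-fold higher in sclera than in neural retina, against 14.6% of all genes. CD68 and TYROBP reached 20 UMIs only with their sclera UMIs counted. At a minimum of 50 UMIs only CD74 was tested, and it was higher, against 12.8% of all genes. With the score classes CSF1R missed 2-fold at 1.88 (0.525 to 5.62), which left 3 of the 4 members. The 14.6% of all genes is for the main regions and is no baseline for that count. Per spot instead of per 10000 UMIs the direction of the member sum turned, with sclera over neural retina at 0.400 in NHP2 and 0.619 in NHP1, and the HBA-led region at 0.220 of neural retina. Per 10000 UMIs, CD74 and TYROBP were at least 2-fold higher in the HBA-led region than in neural retina, 2 of 4, against 16.4% of genes. TYROBP had 2 UMIs in the HBA-led region and reached 20 UMIs only with them counted. For the HBA-led region over sclera it was 0 of 4, against 17.9%. Over sclera CD68 and CSF1R, with 1 UMI each in the HBA-led region, were at least 2-fold lower, 2 of 4 against 9.26% of all genes, and the median ratio of the 4 was 0.548.

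The NHP2 choroid value depended on how spots were assigned. Where each spot took the class of its highest marker score, 74 NHP2 spots were choroid, with a member sum of 26.9 (22.3 to 32.1), 9.82-fold (7.70 to 12.5) over neural retina. Other ways of clustering or naming gave 12.0 in 73 spots, 21.9 in 34 spots, 13.5 in 87 spots (the HBA-led region, which took the name choroid under another naming rule) or no choroid region at all. The NHP1 choroid value was between 23.2 and 30.1 under the versions run, and the version with 30.1 also split off an RPE/choroid region of 50 spots at 17.7. With the score classes the member sum of the choroid spots did not differ between the sections beyond counting error, at an NHP2 over NHP1 ratio of 0.974 (0.785 to 1.2). That sum joins members that differed in opposite directions per 10000 UMIs. CD74 was higher in NHP2 by 1.57-fold (1.22 to 2.02), and CHIT1 had a ratio of 0.243 (0.102 to 0.501). Per spot CD74 was instead lower in NHP2, at 1.39 UMIs against 2.64 in NHP1, as was the sum of the 9, at 1.66 against 5.09. Without CD74 the ratio of the other 8 was 0.329 (0.195 to 0.525), and without CD74 and CHIT1 it was 0.430 (0.212 to 0.798).

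Over all tissue the sections differed in the same members. CD74 had 2.74 (2.48 to 3.02) in NHP1 and 4.39 (3.95 to 4.88) in NHP2, a ratio of 1.60 (1.39 to 1.85), but per spot the sections had 0.762 and 0.753, a ratio of 0.988. CHIT1 had 0.929 (0.781 to 1.10) in NHP1 and 0.174 (0.0950 to 0.292) in NHP2, a ratio of 0.187 (0.0996 to 0.324), and its ratio in sclera alone was 0.755 (0.305 to 1.89). That sclera ratio is for the main regions and depended on the assignment. The NHP1 sclera spots of the score classes held 7 CHIT1 UMIs, a level of 1.03 (0.413 to 2.12). Those of NHP2 held 5, a level of 0.418 (0.136 to 0.976). The gap between the sections was wider there than under the main regions, but these intervals overlapped. CD163 had a tissue ratio of 0.246 (0.0629 to 0.697). Of the 6 members with at least 20 UMIs over both sections, CHIT1 and CD163 were at least 2-fold lower in NHP2, 2 of 6 against 4.23% of all genes. The ratios of CD68, CSF1R at 1.14 (0.690 to 1.84) and TYROBP at 1.49 (0.796 to 2.75) held 1. Animal, vector, depth, section and the share of each layer in the section cannot be told apart here.

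**Figure D3:**
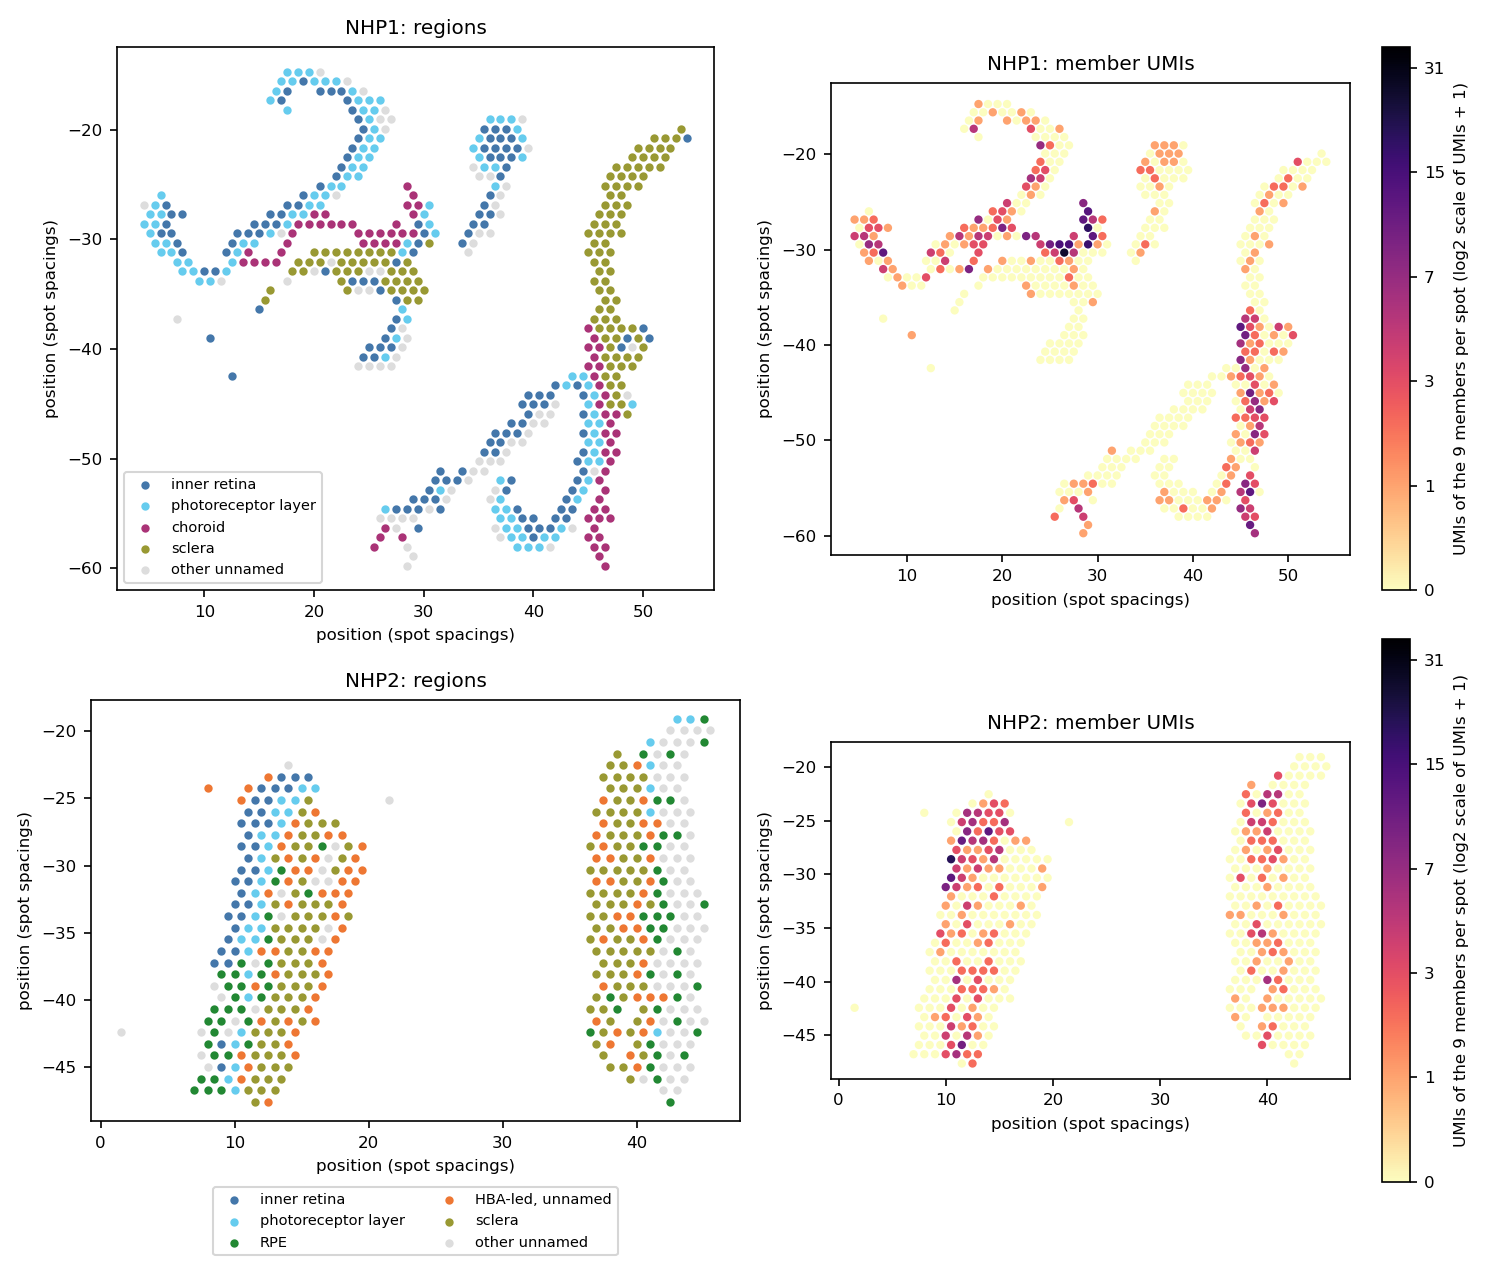
Maps of the tissue spots of NHP1 (top) and NHP2 (bottom), with axes in spot spacings, coloured by region (left) and by the summed UMIs of the 9 members per spot (right, log2 colour scale). In NHP1 the darkest spots, up to 26 UMIs, follow the choroid-like band between retina and sclera. In NHP2 the highest spot, with 20 UMIs, lies in the inner retina, where spots held most UMIs of all genes.

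The choroid-like region of NHP1 lay in both large tissue pieces, with a member sum of 25.5 (21.9 to 29.4) in the first and 32.8 (28.5 to 37.5) in the second. CD74 had 15.4 (12.7 to 18.6) and 16.3 (13.4 to 19.7) in them, which overlap. CHIT1 was 4.87 (3.39 to 6.77) in the first and 9.76 (7.51 to 12.5) in the second, and these intervals did not overlap. The NHP1 sclera sum came mainly from the first piece, with 11.0 (8.34 to 14.3) against 2.73 (1.41 to 4.78) in the second. NHP2 sclera had 16.6 (13.2 to 20.6) and 10.2 (8.20 to 12.6) in its pieces.

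Among the 72 choroid-like spots of NHP1, 29 held at least 3 different members, 7 held none and the median was 4 member UMIs (quartiles 2 and 8). In neural retina 10 of 263 spots held at least 3 members and 154 held none. CD163 and CHIT1 met in 9 choroid-like spots, 90% of the CD163 spots and 29.0% of the CHIT1 spots. CD163 and MRC1 met in 1 spot, out of 10 and 11. Spots that held both members of a pair were deeper than the region's median, which was 1814 UMIs, with medians of 2420 for CD163 and CHIT1. After thinning each spot to 200 UMIs, 41.5% of the choroid-like spots were expected to hold a member UMI, against 3.67% of neural retina spots and 13.9% of sclera spots. The unthinned shares were 90.3%, 41.4% and 32.3%, in which the sclera, with fewer UMIs per spot, fell below neural retina. Under the depth filter of that thinning, 0 of 72 choroid-like, 6 of 263 neural retina and 15 of 124 sclera spots were left out.

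With distance from the nearest neural retina spot the NHP1 sum rose from 1.98 at 0 spacings to 10.6 (9.03 to 12.3) at 1, 18.7 (15.6 to 22.2) at 2 and 30.3 (25.5 to 35.7) at 3 spacings, and was 28.2 (18.4 to 41.4) at 4. Beyond that it was 15.9 at 5, 9.73 at 6 and 4.72 (2.16 to 8.96) at 7 or more spacings, where the bins at 4, 5 and 6 held 13, 7 and 6 spots. In NHP2 the highest level was next to the retina, 22.2 (16.9 to 28.5) at 1 spacing, followed by 14.7 (11.5 to 18.6) at 2, 10.1 (7.76 to 12.9) at 3 and 5.59 (2.89 to 9.76) at 4. It was 13.5 (8.23 to 20.8) again at 7 or more. Neural retina leaves out the 75 GJA1-led spots of NHP1, which carried 23 photoreceptor markers. It includes the photoreceptor-like region of NHP2, which carried 13 RPE markers. The distances may thus not start from the same layer in both sections.

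**Figure D4:**
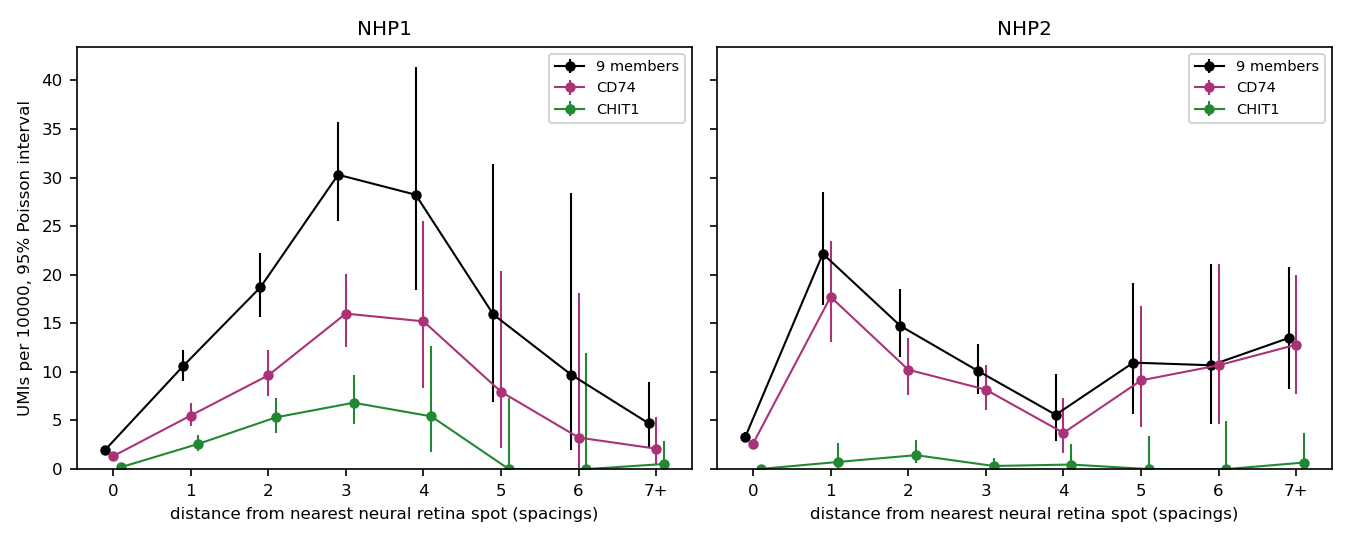
Level (UMIs per 10000, 95% Poisson interval) of the 9 members together, CD74 and CHIT1 against the distance from the nearest neural retina spot in spot spacings, for NHP1 (left) and NHP2 (right). The NHP1 sum peaks at 30.3 at 3 spacings and the NHP2 sum at 22.2 at 1 spacing. Neural retina leaves out the GJA1-led spots of NHP1, so distances may not start from the same layer in both sections.

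In the authors' table of spatial autocorrelation, in which a higher Moran's I means that like values lie together, CD74 had 0.265 in NHP1, rank 67 of 13804 genes, and 0.110 in NHP2, rank 258 of 12542. CHIT1 had 0.207 in NHP1, rank 108, and 0.00030 in NHP2, rank 5726. MRC1 ranked 7872 and TYROBP 6078 in NHP1. FCER1G ranked 694 in NHP1 and 435 in NHP2 from only 3 and 2 UMIs, so a high rank can rest on very few counts.

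Spots outside the tissue held RNA too. Their member level was 4.09 (3.56 to 4.68) in NHP1 and 5.07 (3.61 to 6.93) in NHP2. The neural retina sums of 1.98 and 3.30 lay below these levels. Per spot the order was the other way, with 0.886 and 2.93 member UMIs in neural retina against 0.294 and 0.136 in off-tissue spots within 1.5 spacings of the tissue. How much of the neural retina count was free transcript was not tested. The NHP1 choroid-like sum stood 7.08-fold (5.98 to 8.40) over off-tissue spots, and the 7 members with more than 1 UMI there from 2.79-fold (CD163, 1.16 to 6.5) to 10.2-fold (CHIT1, 6.92 to 15.3). NHP1 sclera stood 1.76-fold (1.32 to 2.32), with CD74 in sclera at 1.32-fold (0.834 to 2.02), whose interval held 1, and CD163 at 4.05-fold (1.68 to 9.45). NHP2 sclera stood 2.47-fold (1.73 to 3.59) and the HBA-led region 2.66-fold (1.73 to 4.11) over off-tissue spots. The second piece of NHP1 sclera, at 2.73, did not exceed the off-tissue level.

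Genes that work with the members were counted from lists chosen for their known roles. Of 11 MHC class II partners of CD74 in the reference, 7 had 20 UMIs in NHP1, and 4 of them (IFI30, MAMU-DRA, MAMU-DRB1 and Mamu-DPA1) were at least 2-fold higher in the choroid-like region than in neural retina, against the 13.4% of all genes. MAMU-DRA had 2.11 against 0.170 and MAMU-DRB1 3.86 against 0.332, though the reads of near-identical class II genes may be split between them. In NHP2 MAMU-DRA had 4.24 in sclera and 4.33 in the HBA-led region against 0.735 in neural retina. For NHP1 sclera over neural retina 1 of 7 partners (MAMU-DRB1) was higher, near the 10.6% of all genes, and 1 (MAMU-DOB) was at least 2-fold lower, against 20.5% of all genes lower. Of the 5 partners with 20 UMIs in NHP2, MAMU-DRA and MAMU-DRB1 were at least 2-fold higher in sclera than in neural retina, 2 of 5 against 14.6% of all genes, with a median ratio of 1.25 over the 5. In the HBA-led region 4 of 5 were higher than in neural retina, against 16.4% of all genes, and the remaining 1 had 0 UMIs there, too few to call. CIITA, the class II transactivator, had 0 UMIs in the NHP1 choroid-like region.

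All 3 chains of complement C1Q, made largely by macrophages, were at least 2-fold higher in the NHP1 choroid-like region than in neural retina. The share of all genes was 13.4%. The summed ratio of the chains was 14.7 (10.8 to 20.1). C1QB had 3.86 against 0.281 and C1QA 2.84 against 0.204. The summed C1Q ratio of sclera over neural retina was 8.21 (5.50 to 12.1) in NHP1 and 3.39 (2.43 to 4.69) in NHP2. Of the 10 general leukocyte genes, 4 had 20 UMIs in NHP1 (ARHGDIB, CD52, ITGB2 and LAPTM5). All 4 were at least 2-fold higher in the choroid-like region than in neural retina, against 13.4% of all genes. CD52 was at 1.60 against 0.102. Of 11 lysosome and chitinase genes with 20 UMIs, 8 were at least 2-fold higher there than in neural retina, against 13.4% of all genes, but only GPNMB and LIPA, 2 of 11, were so over sclera, against 17.6%. GPNMB was at 10.6 against 0.588 in neural retina and CTSD at 31.5 against 6.55. GPNMB is also a pigment cell gene. Of 22 resident macrophage genes only 4 had 20 UMIs in NHP1. Among these, 2 (CD14 and FCGRT) were higher in the choroid-like region than in neural retina, against 13.4% of all genes. Over sclera 1 of the 4 (SLC40A1) was higher, against 17.6% of all genes, and 1 (MAF) was at least 2-fold lower, against 15.6%, from 2 UMIs in the choroid-like region and 3 in sclera. CD14, the lipopolysaccharide co-receptor, had 0.728 in the choroid-like region against 0.0937 in neural retina. In NHP2 sclera 2 of 4 (CD14 and FCGRT) were higher than in neural retina, against 14.6% of all genes, and 1 (MAF, with 2 UMIs in sclera) was lower, against 33%. CD14 had 1.83 there against 0.196.

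Markers of other cells also differed between the regions. The 5 melanocyte genes summed to 69.8 in the NHP1 choroid-like region, 18.4 in sclera and 3.81 in neural retina, and in NHP2 to 60.4 in the HBA-led region, 27.1 in sclera and 5.11 in neural retina. Blood endothelium genes summed to 13.8, 3.38 and 5.53 in the same regions of NHP1 and to 10.3, 5.19 and 5.62 in NHP2, so they were not higher in sclera than in neural retina. Pericyte and smooth muscle genes summed to 11.1, 6.87 and 2.09 in NHP1 and to 14, 10.2 and 1.31 in NHP2, in the same order of regions as the member sum. Of these genes 5 of 5 were at least 2-fold higher in the NHP1 choroid-like region and 4 of 4 in NHP2 sclera than in neural retina, against 13.4% and 14.6% of all genes, with median ratios of 5.58 and 5.74. For NHP1 sclera 2 of 5 were higher, against 10.6%, and the median was 0.954. Among lymphatic endothelium genes only PDPN had 20 UMIs, and its ratio to neural retina was 5.24 in the NHP1 choroid-like region and 2.64 in NHP2 sclera. Red cell genes, from HBA alone, summed to 7.42, 1.06 and 0.554 in NHP1 and to 3.85, 1.39 and 0.0490 in NHP2. Melanocyte, endothelium, and pericyte and smooth muscle genes are all among the markers that named the choroid. Their counts past the fold in the choroid-like region are thus not independent of the naming. The part of these cells in the member levels was not tested. Among lymphoid markers, T cell and NK cell genes had 2 UMIs and B cell and plasma cell genes 1 in the NHP1 choroid-like region, with CD3D, CD3E, CD3G, CD79A and MS4A1 at 0 over the tissue of both sections. TRAC, the T cell receptor alpha constant gene, had 65 UMIs in NHP1 and 21 in NHP2. Of these, 52 and 18 lay in neural retina and 1 in the NHP1 choroid-like region. Neural retina held 79.1% of all NHP1 tissue UMIs and 76.0% of those of NHP2, a share to set beside these counts and those below. The 8 dendritic cell genes had 0 UMIs over the NHP1 tissue. CPA3 and MS4A2 of mast cells were also at 0 in both sections, whereas KIT of the mast cell list had 82 and 43 UMIs, of which 77 and 40 lay in neural retina. JCHAIN, a plasma cell gene, had 1.24 in NHP2 sclera and 0.555 in NHP2 neural retina, and of its 29 UMIs in NHP1 27 lay in neural retina and 0 in sclera. The neutrophil and monocyte gene S100A8 had 19 UMIs in NHP1 sclera at 2.01, 5 in the choroid-like region, and 0 in NHP2.

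Microglia genes were sparse, with TMEM119 and P2RY13 at 0 over both sections, P2RY12 at 2 UMIs in NHP1 and 11 in NHP2, and the list at 6 UMIs in the NHP1 choroid-like region, 0.437, against 21 in neural retina, 0.179. Markers that would tell choroidal macrophages from microglia were thus too few to compare at this depth.

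Over the 16 clusters of both sections, the genes with level profiles most like the member sum, by Pearson correlation of log2 levels with a pseudocount of 0.1, were CTSB (0.93), SCARA5 (0.92), ALDH1A1 (0.92), CD63 (0.92) and VAT1 (0.92), against a median of -0.37 over 6705 genes. CD74 was most like VAT1 (0.93), CD63 (0.90), ALDH1A1 (0.89), CTSB (0.87) and HSPG2 (0.86). CHIT1 was most like PRSS12 (0.83), the melanocyte gene MLANA (0.82), SLPI (0.81), SERINC2 (0.79) and BACE2 (0.78), against a median of 0.18 over all genes for CHIT1. Its correlation with CD74 was also 0.18, and 0.36 among the 14 clusters with at least 2000 UMIs. With CD68 the 2 values for CHIT1 were 0.69 and 0.62, and with CSF1R they were 0.11 and 0.31. These clusters share 2 libraries and differ greatly in depth, and the order of genes changed among those 14. There the 5 genes most like CD74 were VAT1, FLNA, MAMU-DRA, VSIR and SDCBP, those most like CHIT1 were CCL26, GRN, PRSS12, MLANA and SLPI, and those most like the member sum were SDCBP, EGFL7, PRDX1, CD63 and CTSB.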

How the data were processed

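The deposited matrices hold unnormalized UMI counts of every spot on the array, made by the authors with Space Ranger 2.1.0 against Mmul_10 with the transgenes added, together with spot positions and a table holding Moran's I, a score computed by the authors' run of Space Ranger. The authors' p-values, adjusted p-values and the mean counts of that table were not used. The study's methods and the labels describe fresh-frozen tissue, fixed in methanol on the slide, and 1 protocol text in the labels also mentions earlier PFA fixation.

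The counts of each section's tissue spots were clustered with Python 3.11.15, scanpy 1.11.5 and leidenalg 0.10.2 (numpy 2.4.6, scipy 1.17.1). Left out were 138 immune genes, the members among them. The steps were scaling to 10000, log1p, 2000 variable genes, 20 components, 15 neighbours and resolution 1. A cluster of at least 2000 UMIs took the class with most markers, at least 3, each of 3 UMIs and 1.5-fold over the rest of the section. It stayed unnamed if another class had more of its 10 leading genes, or if it was shallow with none of its own markers there. The members, lists and rules were chosen with earlier results of these data known. In all, 3 ways of clustering and 3 naming rules were run with member levels in view, and the main one was chosen after these had been seen.

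Ratios have conditional binomial intervals and shares exact Clopper-Pearson ones, for counting error only. Gene counts of 0 allow up to 3 UMIs. A gene was called past 2-fold with at least 20 UMIs in the section, and no p-value is given because the spots of a section cannot stand as replicates. The fold call and the interval of the ratio were tested on simulated counts with known folds. The clustering and the naming of regions were not tested on simulated data. The named genes are the members, genes of the lists with at least 10 UMIs, genes that define a region and the 5 genes most like a member in profile. Marker genes given at or near 0 were named after their values were seen. No doublet caller was run, since a spot can hold several cells. The 67 tissue barcodes found in both sections name array positions. All depths are total UMIs per region or section.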

Additional observations from a re-analysis of the deposited data

Results flagged for a closer look

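The photoreceptor layer and the inner retina stood in opposite order in the sections under the main regions, but not under the score classes. The photoreceptor-like over inner retina-like ratio of the member sum was 0.598 (0.456 to 0.782) in NHP1 and 1.43 (1.06 to 1.91) in NHP2, and for CD74 it was 0.600 (0.429 to 0.836) and 1.51 (1.08 to 2.09). With each spot in the class of its highest marker score, inner retina was the higher in both sections. There the photoreceptor and inner retina levels of the member sum were 1.37 and 2.1 in NHP1 and 2.26 and 3 in NHP2, and those of CD74 were 0.677 and 1.38 in NHP1 and 1.58 and 2.42 in NHP2. In the first piece of NHP1 CD74 had 1.43 (0.847 to 2.26) in the photoreceptor layer and 1.08 (0.557 to 1.88) in inner retina. With 1 section per animal the difference between the animals was not tested. The photoreceptor-like region of NHP2 carried 13 RPE markers and that of NHP1 carried 2 in each of its clusters, and the part of this in the ratios was not tested. All 4 levels of the member sum lay below the off-tissue level of their section.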

How the results depend on the processing

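No paired analysis was possible because each animal has 1 section, both numbered replicate 1, and for the same reason no replicate could be left out. Of 93 alternatives to the 13 main results, 70 kept direction and size, 18 moved and 5 reversed. Per spot instead of per 10000 UMIs, which leaves depth in the value, the choroid over neural retina ratio of NHP1 was 6.24, sclera over neural retina 0.619 in NHP1 and 0.400 in NHP2 (both reversed), choroid over sclera 10.1, the HBA-led region 0.220 of neural retina (reversed) and 0.550 of sclera, and NHP2 over NHP1 0.711 for tissue (reversed) and 3.30 for neural retina. In single members, sclera over neural retina per spot reversed for CD74 (0.370 in NHP1, 0.381 in NHP2), CD68 (0.709 in NHP2) and TYROBP (0.473 in NHP2). TYROBP in NHP1 and CSF1R in both sections also had fewer UMIs per spot in sclera than in neural retina. With the highest marker score per spot, sclera over neural retina was 5.11 in NHP1 and 2.81 in NHP2, choroid over sclera 2.99, and NHP2 over NHP1 in sclera 0.833 (reversed). In the largest tissue piece the ratios were 5.95 and 2.81 for sclera over neural retina, 2.31 for choroid over sclera, 2.98 for the HBA-led region over neural retina, and 1.92 and 3.19 for NHP2 over NHP1 in tissue and neural retina, where NHP2 had 7 neural retina spots. With feature-list names and the first naming rule, choroid over neural retina was 12.3. Spots with a member UMI, 42.1% and 35.3%, were 24.0% and 22.3% at 2 UMIs and 11.4% and 18.0% after thinning to 200 UMIs, which also left out 25 of 534 and 164 of 470 shallower spots (the kept spots had 43.2% and 52.9% before thinning). The versions of clustering and naming were added after seeing the data. Depth limits LYVE1, FCER1G and MRC1 in both sections and the place of CHIT1 (14 UMIs) and CD163 (4 UMIs) in NHP2.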
